A study of Mus musculus with 6 samples.

Results

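The neutrophil granule genes described here are 10 genes, Mpo, Elane, Prtn3, Ctsg, Ms4a3, Fcnb, Camp, Ltf, Ngp and S100a8, taken by symbol from the 55401 gene identifiers of the deposited expression matrix. All 10 symbols mapped to a single identifier. Expression had been measured by RNA sequencing in hematopoietic stem cells (HSCs) of mouse bone marrow, sorted by absence of CD48 and presence of CD150 in the LSK fraction, the lineage-negative, Sca-1-positive and c-Kit-positive cells. There were 3 control libraries (Emp1fl/fl, called Emp1-fl in the plots) and 3 Emp1-deficient libraries (Emp1fl/fl,Tie2-Cre, called Emp1-ko), each numbered as replicates 1 to 3. Both genotypes carried floxed Emp1 alleles, and the Emp1-deficient mice also carried a Cre recombinase under the Tie2 promoter, which is active in endothelial and blood-forming cells, so the Cre is not specific to HSCs. The labels used here give neither age, nor sex, nor the mice behind each library, so the p-values reflect only how far these libraries spread, which may be technical.

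Neutrophils pack their killing proteins into granules that form in sequence as the cell matures. Primary (azurophil) granules are filled first, in promyelocytes, with myeloperoxidase and with serine proteases. Specific granules follow in myelocytes and carry lactoferrin and cathelicidin, and calgranulin accumulates in the cytosol of the maturing cell. Transcripts of primary-granule genes are known from early myeloid progenitors, and low levels in multipotent cells are commonly described as lineage priming, whereas specific-granule transcripts belong to cells that the LSK gate should leave out. Following the granule in which the protein is found, the genes were grouped as primary-granule (Mpo, Elane, Prtn3 and Ctsg, 4 genes) and later, specific-granule (Camp, Ltf and Ngp, 3 genes). The other 3 were described beside them, since Ms4a3 encodes a membrane protein of early granulocyte and monocyte progenitors, Fcnb a ficolin, and S100a8 a cytosolic calgranulin.

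The regions upstream of the 7 genes of both classes are shown because the results turn on their comparison, and that of Fcnb because it holds a motif also found in Ltf and Ngp. Prtn3 and Elane are neighbours on the chromosome with unlike levels. The sequences are RefSeq's for GRCm38.p6, read 5′ to 3′ on the gene's strand, from 250 bases before the RefSeq start up to the first base of any protein-coding GENCODE transcript, so their lengths differ. The Prtn3 window lies before the RefSeq start but inside the longer gene span that GENCODE gives. Capitals mark matches, on either strand, to 5 short motifs, PU.1-like GAGGAAG, C/EBP-like TTGCNNAA, RUNX-like TGTGGT, MYB-like AACNGNC and GFI1-like AATCNNNGC.
Mpo (chr11:87793534-87793580, plus strand): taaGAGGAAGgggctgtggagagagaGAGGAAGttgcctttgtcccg
Elane (chr10:79886062-79886246, plus strand): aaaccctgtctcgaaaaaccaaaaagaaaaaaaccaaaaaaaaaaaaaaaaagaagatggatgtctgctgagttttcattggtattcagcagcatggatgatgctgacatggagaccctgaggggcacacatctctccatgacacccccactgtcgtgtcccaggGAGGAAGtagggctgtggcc
Prtn3 (chr10:79879417-79879613, plus strand): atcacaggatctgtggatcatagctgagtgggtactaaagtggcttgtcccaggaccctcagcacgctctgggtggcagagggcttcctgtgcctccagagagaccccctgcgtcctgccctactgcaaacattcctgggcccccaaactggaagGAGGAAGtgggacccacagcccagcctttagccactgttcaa
Ctsg (chr14:56102575-56102824, minus strand): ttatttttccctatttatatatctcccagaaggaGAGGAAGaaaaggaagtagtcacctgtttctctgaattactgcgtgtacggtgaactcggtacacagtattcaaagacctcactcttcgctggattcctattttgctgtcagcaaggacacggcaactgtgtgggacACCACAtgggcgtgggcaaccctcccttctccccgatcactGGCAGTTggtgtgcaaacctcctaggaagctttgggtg
Camp (chr9:109849618-109849706, minus strand): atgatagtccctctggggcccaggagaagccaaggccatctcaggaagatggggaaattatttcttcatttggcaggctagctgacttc
Ltf (chr9:111019042-111019270, plus strand): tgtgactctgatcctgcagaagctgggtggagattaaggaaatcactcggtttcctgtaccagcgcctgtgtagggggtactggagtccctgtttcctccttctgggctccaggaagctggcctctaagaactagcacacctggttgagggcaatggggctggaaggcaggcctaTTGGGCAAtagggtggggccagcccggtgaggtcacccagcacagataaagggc
Ngp (chr9:110419558-110419746, plus strand): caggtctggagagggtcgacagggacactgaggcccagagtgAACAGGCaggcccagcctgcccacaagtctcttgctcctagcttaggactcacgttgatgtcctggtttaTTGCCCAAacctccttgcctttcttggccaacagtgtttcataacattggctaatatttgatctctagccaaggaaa
Fcnb (chr2:28084886-28085128, minus strand): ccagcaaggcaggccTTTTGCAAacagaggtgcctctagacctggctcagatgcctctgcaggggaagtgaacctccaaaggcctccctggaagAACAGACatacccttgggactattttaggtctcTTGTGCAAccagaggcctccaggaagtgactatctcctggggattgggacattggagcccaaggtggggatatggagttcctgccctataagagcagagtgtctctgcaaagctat
The letters GAGGAAG stood upstream of each of the 4 primary-granule genes, at 2 positions in Mpo and at 1 in Elane, Prtn3 and Ctsg. Of 32851 RefSeq upstream windows cut to the same lengths, 1.69% held this motif at the 47 bases of Mpo, 7.52% at the 185 bases of Elane, 7.98% at the 197 bases of Prtn3 and 10.6% at the 250 bases of Ctsg. It was not found in the windows of Camp, Ltf, Ngp, Fcnb or Ms4a3, and S100a8 held it once on the opposite strand. The letters TTGCNNAA stood once in the windows of Ltf and Ngp and at 2 positions in that of Fcnb, against 9.02%, 7.76% and 9.37% of all windows of those lengths. Camp, whose window is the shortest of the specific-granule genes at 89 bases, held no match to TTGCNNAA or to any other of the 5 motifs, and 3.68% of windows of that length hold TTGCNNAA. Ctsg also held 1 match to the RUNX-like and 1 to the MYB-like motif, while Ngp and Fcnb each held 1 to the MYB-like motif. The GFI1-like motif was not found in any of the 10 windows. A match describes the letters and is not evidence of binding.

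The authors' deposited values are FPKM, which scales fragments to the length of the transcript and the size of the library. Levels can thus be compared roughly between genes. The RNA was amplified by a low-input method, and its part in differences between genes was not tested. The libraries had 14334 to 18048 genes at 1 FPKM or more, and their relative depth, estimated from low single-exon genes, ran from 0.774 to 1.87 with control replicate 1 set to 1. Emp1-deficient replicate 3 was the deepest by this estimate, with the fewest genes at 1 FPKM and the highest share of FPKM in mitochondrially encoded genes (6.98%). That share was 4.06% to 4.80% in controls and 5.41% to 6.98% in Emp1-deficient libraries, and its part in the results was not tested. Emp1 itself stood at 3.25, 2.64 and 4.32 FPKM in controls, against 0.58, 0.7 and 0.27 FPKM with Emp1 deficiency, in the direction of the labels, although its limma adjusted p was 0.0577. HSC markers were present in all 6 libraries, at unlike levels. Kit and Meis1, the highest of 13, stood at 217 to 337 and 292 to 404 FPKM. Hoxb5 and Fgd5, named after their values were seen, stood at 3.32 to 6.56 and 2.23 to 7.45 FPKM. Every Emp1-deficient value lay below every control value for Ly6a and Hlf (as in 13.2% of tested genes) and above for Hoxb5 (8.91%). Transcripts of Cd48, whose product the sort selected against, stood at 22.9 to 49.6 FPKM, also named after the values were seen. Genotypes were compared on log2(FPKM + 1) with limma over 15724 genes, those with at least 1 FPKM in at least 3 libraries, with Benjamini-Hochberg adjustment over all of them. Of the granule genes 9 passed this filter, and Fcnb, which reached 1 FPKM in 2 libraries, was kept by name.

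Prtn3 was by far the most abundant of the genes, with a mean of 443 FPKM over the 6 libraries, at the 98.8th percentile of all tested genes. S100a8 followed at 107 FPKM, Mpo at 65.5 FPKM, Elane at 24.5 FPKM and Ctsg at 17.5 FPKM. Below them came Ngp at 12.0 FPKM, Camp at 10.5 FPKM, Ms4a3 at 9.71 FPKM, Ltf at 3.06 FPKM and Fcnb at 0.838 FPKM. The range of Prtn3 did not meet that of S100a8, whereas for every other pair of neighbours in this order the ranges over the 6 libraries overlapped. Mpo nevertheless exceeded Elane in 6 of 6 libraries, while S100a8 exceeded Mpo in 3 of 6 and Camp exceeded Ms4a3 in only 1 of 6. The means of Ngp and Camp were raised by Emp1-deficient replicate 3, at 43.49 and 42.87 FPKM. The primary-granule genes thus filled 4 of the 5 highest places, with S100a8 among them.

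**Figure D1:**
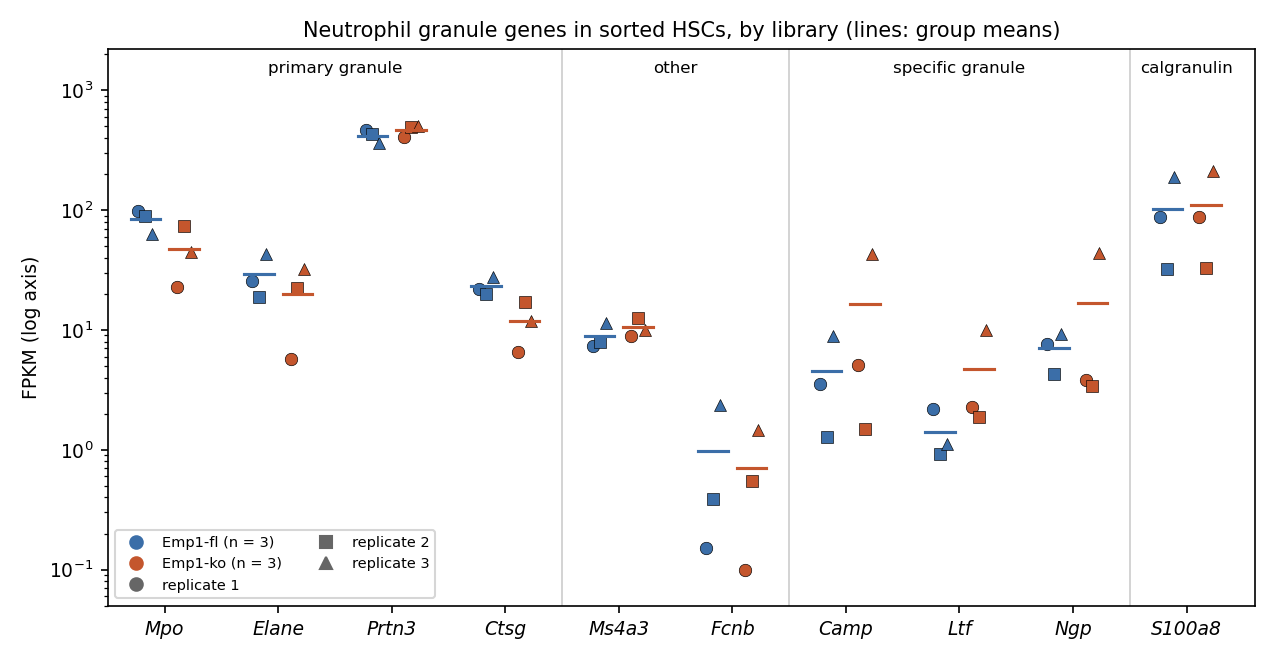
FPKM of the 10 neutrophil granule genes on a log axis, with 1 point per library, blue for Emp1-fl (control) and orange for Emp1-ko (Emp1-deficient), marker shape for the replicate number and lines for group means. Prtn3 lies between 361.75 and 501.12 FPKM in all libraries, while Camp, Ltf and Ngp are highest in Emp1-ko replicate 3.

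None of the 10 genes passed the genotype test. By limma 0 rose and 0 fell at an adjusted p under 0.05, where 0.267% of all tested genes did (25 higher and 17 lower). Before adjustment, at a p under 0.05, there was 1 of 10, Ctsg, which was lower, against 16.2% of tested genes (6.5% higher and 9.72% lower), a share no larger than the background. The median log2 difference of the 10 genes was 0.11, with 6 positive and 4 negative, beside a median of -0.046 over all tested genes, of which 43.1% were positive and 56.9% negative. These are bulk libraries, so fewer cells of a type and less RNA per cell cannot be told apart.

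Among the primary-granule genes, Mpo, Elane and Ctsg had lower means in Emp1-deficient HSCs and Prtn3 did not, with no call for any of them. Mpo (ENSMUSG00000009350, mm10 chromosome 11, 87793581 to 87804413, plus strand) encodes myeloperoxidase, the heme enzyme that makes hypochlorous acid. It stood at 98.33, 89 and 63.54 FPKM in control replicates 1, 2 and 3, against 22.97, 73.8 and 45.1 FPKM in those deficient for Emp1. The genotypes overlapped, because Emp1-deficient replicate 2 exceeded control replicate 3. The means were 83.6 ± 18.0 and 47.3 ± 25.5 FPKM (SD, n = 3 each), a log2 difference of -0.93 (SE 0.47, 95% interval -2.14 to 0.27, limma adjusted p = 0.418). An antisense transcript, Gm11505, shares 512 of the 3424 exonic bases of Mpo, and since the counting is not stated to use strand, their reads cannot be told apart, but Gm11505 was listed at 0.2 to 1.19 FPKM.

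Ctsg (ENSMUSG00000040314, chromosome 14, 56099881 to 56102574, minus strand), which encodes the serine protease cathepsin G, was the 1 member whose genotypes did not overlap. It stood at 21.93, 19.95 and 27.59 FPKM in controls, against 6.51, 17.01 and 11.89 FPKM with Emp1 deficiency. Every Emp1-deficient value lay below every control value, as in 13.2% of all tested genes, while 8.91% had every value above and 22.1% did not overlap in either direction. The means were 23.2 ± 3.96 and 11.8 ± 5.25 FPKM (SD, n = 3 each), a log2 difference of -0.99 (SE 0.31, 95% interval -1.72 to -0.27), with a limma unadjusted p of 0.0140 and an adjusted p of 0.191.

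Elane and Prtn3 lie next to each other on the plus strand of chromosome 10, with 3.07 kb between them, and both encode chymotrypsin-fold serine proteases, neutrophil elastase and proteinase 3. Elane (ENSMUSG00000020125, 79886247 to 79888215) stood at 25.4, 18.84 and 42.82 FPKM in controls, against 5.7, 22.23 and 32.21 FPKM with Emp1 deficiency. Apart from the low Emp1-deficient replicate 1, the genotypes lay in the same range (log2 difference -0.72, SE 0.73, limma adjusted p = 0.711). Prtn3 (ENSMUSG00000057729, 79874476 to 79883174) stood at 467.8, 427.97 and 361.75 FPKM in controls, against 410.09, 491.01 and 501.12 FPKM with Emp1 deficiency. Its highest library was 1.39 times its lowest, and the log2 difference was 0.16 (SE 0.13, 95% interval -0.14 to 0.46, limma adjusted p = 0.621).

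The ratio of Prtn3 to Elane accordingly ran from 8.45 to 22.7 in controls and from 15.6 to 71.9 in Emp1-deficient libraries, with the highest in Emp1-deficient replicate 1. The spread within genotypes, as the residual SD on the log2 scale, was 0.17 for Prtn3 and 0.95 for Elane, beside a median of 0.20 over all tested genes. Plppr3, a gene on the opposite strand, shares 159 of the 1732 exonic bases that GENCODE gives Prtn3, and it stood at 51.0 to 81.4 FPKM, so part of the Prtn3 value may belong to it. Cfd, on the other side of Elane, was listed at 0 in all 6 libraries.

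The low values of the primary-granule class centred on 1 library. Emp1-deficient replicate 1 had the lowest value of Mpo, Elane and Ctsg, at 36.2%, 30.3% and 32.6% of the lowest control, but its Prtn3 was at 113%. Without that library the log2 differences were -0.50 for Mpo, -0.033 for Elane and -0.65 for Ctsg, with limma adjusted p of 0.428, 0.985 and 0.153, and the class median went from -0.83 to -0.27. This library had a relative depth of 0.774, close to the 0.776 of control replicate 2, and the lowest summed level of the 13 HSC markers (941 FPKM, against 1126 to 1343 FPKM in the other libraries), and the part of either in the low values was not tested. The 4 primary-granule genes together summed to 555 ± 58.9 FPKM in controls, against 547 ± 88.0 FPKM under Emp1 deficiency, with Prtn3 as most of the sum. Without Prtn3, which had the opposite sign, the other 3 came to 136 ± 9.08 FPKM in controls, against 79.1 ± 39.9 FPKM under Emp1 deficiency (SD, n = 3 each).

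**Figure D2:**
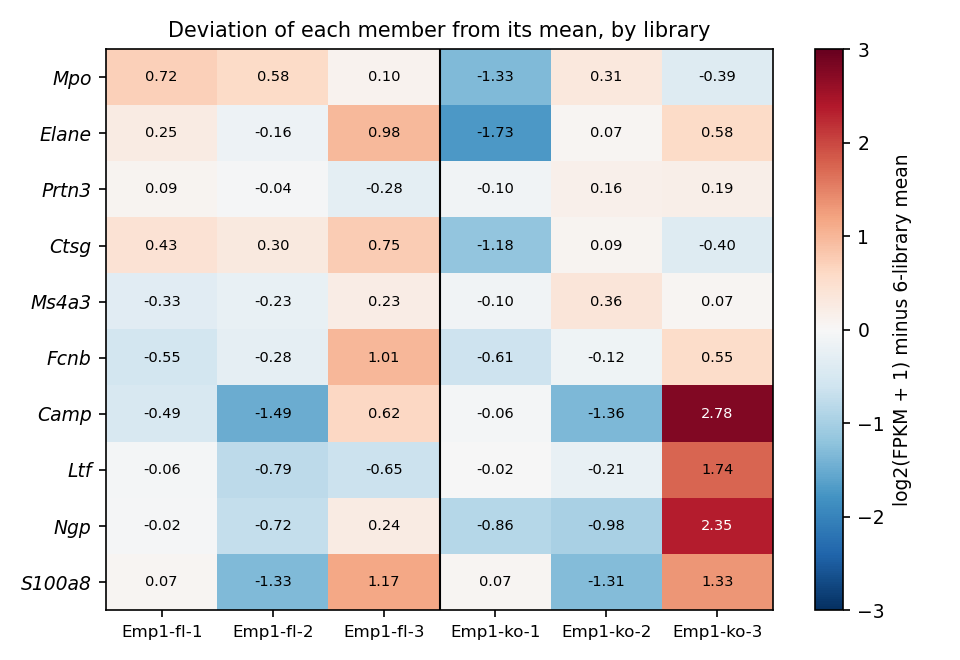
Deviation of each gene, on the log2(FPKM + 1) scale, from its own mean over the 6 libraries (columns, with Emp1-fl to the left and Emp1-ko to the right of the line). Mpo, Elane and Ctsg are lowest in Emp1-ko replicate 1 (-1.33, -1.73 and -1.18), and Camp, Ltf and Ngp are highest in Emp1-ko replicate 3 (2.78, 1.74 and 2.35).

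The specific-granule genes were low in 5 libraries and high in Emp1-deficient replicate 3. Camp (ENSMUSG00000038357, chromosome 9, 109847379 to 109849617, minus strand), which encodes the precursor of the antimicrobial peptide cathelicidin, stood at 3.55, 1.27 and 8.84 FPKM in controls, against 5.12, 1.49 and 42.87 FPKM with Emp1 deficiency. Ngp (ENSMUSG00000032484, chromosome 9, 110419747 to 110423012, plus strand), a granule protein related to cathelicidins, stood at 7.56, 4.27 and 9.26 FPKM and at 3.79, 3.42 and 43.49 FPKM. Ltf (ENSMUSG00000032496, chromosome 9, 111019271 to 111042767, plus strand), which encodes the iron-binding protein lactoferrin, stood at 2.17, 0.92 and 1.11 FPKM and at 2.26, 1.86 and 10.04 FPKM. In that 1 library the levels were 4.85, 4.70 and 4.63 times the highest control for Camp, Ngp and Ltf, while the other Emp1-deficient libraries lay within or close to the control range.

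The genotypes overlapped for all 3 genes, and the differences were uncertain. The log2 difference was 0.91 for Camp (SE 1.31, 95% interval -2.64 to 4.45, limma adjusted p = 0.808), 0.34 for Ngp (SE 1.08, 95% interval -2.55 to 3.24, limma adjusted p = 0.921) and 1.001 for Ltf (SE 0.52, 95% interval -0.21 to 2.22, limma adjusted p = 0.402). Without Emp1-deficient replicate 3 they were -0.26, -0.75 and 0.38 (limma adjusted p = 0.935, 0.391 and 0.683), so that Camp and Ngp changed sign. The residual SDs of Camp and Ngp, 1.67 and 1.38, lay at the 99.0th and 98.6th percentiles of all tested genes. The 3 genes lie on the same chromosome, with 570 kb between Camp and Ngp and 596 kb between Ngp and Ltf. The nearest measured coding genes, Nme6 beside Camp at 33.9 to 49.4 FPKM and Klhl18 beside Ngp at 4.28 to 9.20 FPKM, were not highest in Emp1-deficient replicate 3, while Ccrl2 beside Ltf, at 52.2 FPKM there, was.

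Other genes of maturing neutrophils were not uniformly high in that library. The 17 other specific- and gelatinase-granule genes summed to 285 FPKM there and to 263 and 193 FPKM in Emp1-deficient replicates 1 and 2. The control sums were 174 to 187 FPKM. Slpi, a protease inhibitor, made up 87.43, 21.11 and 97.77 FPKM of the sums of Emp1-deficient replicates 1, 2 and 3. In control replicates 1, 2 and 3 it made up 1.36, 19.34 and 6.99 FPKM. Much of every sum was Cnn2, at 82.1 to 101 FPKM, and Qsox1, at 44.2 to 55.7 FPKM, over the 6 libraries. The 10 calgranulin and cytosolic genes summed to 220 FPKM there and to 135 and 159 FPKM in Emp1-deficient replicates 1 and 2, against 140 to 174 FPKM in controls. The 14 mature neutrophil surface genes summed to 124 to 153 FPKM in controls, against 110 to 151 FPKM with Emp1 deficiency, lowest in Emp1-deficient replicate 3. The specific-granule genes Lcn2 (lipocalin 2) and Mmp8 (a collagenase) were named after their values were seen, like the others that follow. In Emp1-deficient replicate 3 they stood at 4.04 and 0.12 FPKM, against 1.67 to 4.34 and 0.78 to 2.27 FPKM in controls. Retnlg, a transcript of mature neutrophils, was listed at 1.82 FPKM there and at 9.2 to 17.5 FPKM in controls. The low values were not particular to that library, since Emp1-deficient replicate 2 had Mmp8 at 0.26 and Retnlg at 1.81 FPKM. Chil3, a chitinase-like protein of myeloid cells, was in contrast highest in Emp1-deficient replicate 3 at 7.90 FPKM, against 0.64 to 2.5 FPKM in controls. Cd177, Pglyrp1 and Lrg1, of the same lists, were likewise highest in that library, at 2.85, 17.37 and 4.01 FPKM. They stood at 0.29 to 1.07, 8.47 to 11.97 and 1.16 to 2.87 FPKM in controls. Ly6g, the defining surface antigen of mouse neutrophils, stood at 0.27 to 1.06 FPKM in all 6 libraries, and the cytosolic stefins Stfa2 and Stfa3 were listed at 0 throughout. The part of cells other than HSCs in these values was not tested.

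S100a8 (ENSMUSG00000056054, chromosome 3, 90668978 to 90670035, plus strand) differed more between replicates than between genotypes. It stood at 87.3, 32.44 and 188.75 FPKM in control replicates 1, 2 and 3 and at 87.34, 33.1 and 211.57 FPKM in Emp1-deficient replicates 1, 2 and 3. The highest library was 5.82 times the lowest among controls and 6.39 times among Emp1-deficient libraries, with nearly the same level at each replicate number. The genotype means were 103 ± 79.3 and 111 ± 91.5 FPKM (SD, n = 3 each; log2 difference 0.064, SE 1.02, limma adjusted p = 0.985). Its partner in the calprotectin complex, S100a9, stood at 38.28, 17.32 and 78.15 FPKM and at 26.19, 16.32 and 67.44 FPKM, in the same order of libraries within each genotype. The ratio of S100a8 to S100a9 ran from 1.87 to 3.33.

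Replicate 3 was the highest library in both genotypes for 5 of the 10 genes, Elane, Fcnb, Camp, Ngp and S100a8, as it was for 5.65% of all tested genes. For 3 of these, Camp, Ngp and S100a8, replicate 2 was also the lowest in both, as for 1.07% of all tested genes. This pattern was noticed after the values had been seen and is given as a description, and the genes share their libraries, so they are not separate cases. The labels do not say that a replicate number marks a shared sort or day, and the part of any such sharing was not tested.

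Fcnb and Ms4a3 differed in level and in spread. Fcnb (ENSMUSG00000026835, chromosome 2, 28076378 to 28084885, minus strand), which encodes ficolin B, a lectin of innate immunity, was barely detected, with 0.15, 0.39 and 2.38 FPKM in controls, against 0.1, 0.55 and 1.46 FPKM with Emp1 deficiency. Its log2 difference of -0.12 (SE 0.47, limma adjusted p = 0.934) rests on values under 1 FPKM in 4 of 6 libraries. Ms4a3 (ENSMUSG00000024681, chromosome 19, 11629496 to 11640851, minus strand) measured 7.37, 7.99 and 11.41 FPKM in controls, against 8.86, 12.55 and 10.06 FPKM with Emp1 deficiency. The genotypes overlapped, with a residual SD of 0.27 at the 67.1th percentile of all tested genes, and the difference was 0.22 (SE 0.19, 95% interval -0.21 to 0.66, limma adjusted p = 0.638).

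**Figure D3:**
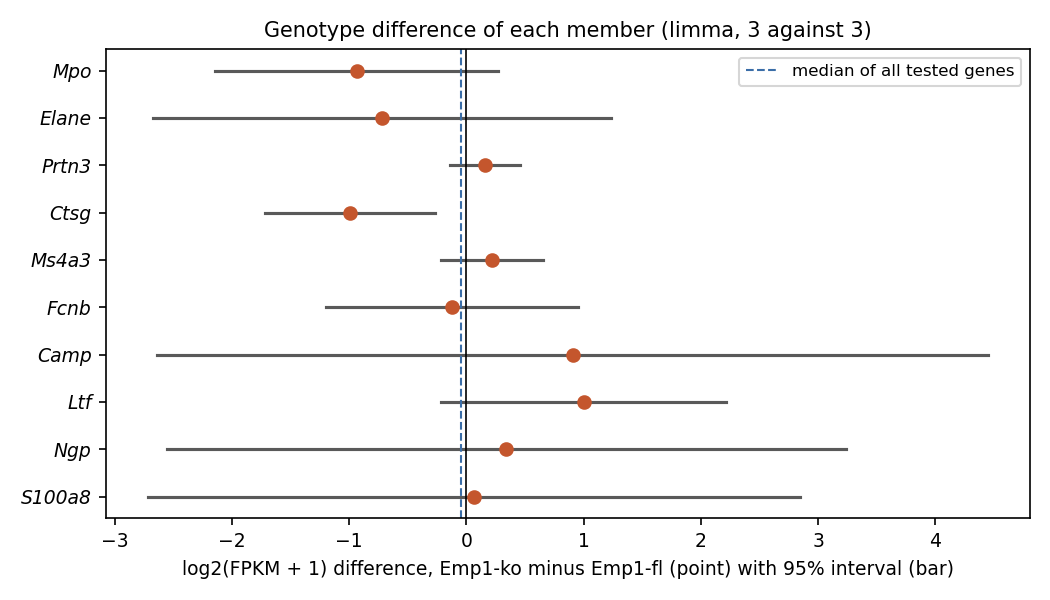
Log2(FPKM + 1) difference between Emp1-ko and Emp1-fl for each gene (points), with the 95% interval from limma (bars) and the median of all tested genes (dashed line). The interval of Ctsg, -1.72 to -0.27, is the only one that leaves out 0, before adjustment for the number of genes tested.

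Set side by side within a library, the mean level of the primary-granule class exceeded that of the specific-granule class in all 6, with Prtn3 as its highest gene throughout. Single genes did not all follow, since in Emp1-deficient replicate 3 Camp and Ngp, at 42.87 and 43.49 FPKM, lay above Elane and Ctsg, at 32.21 and 11.89 FPKM. In that library the primary-granule genes without Prtn3 summed to 89.2 FPKM and the specific-granule genes to 96.4 FPKM. The mean log2(FPKM + 1) of the primary-granule class was 6.19, 5.98 and 6.20 in controls and 4.73, 5.97 and 5.81 in Emp1-deficient libraries. That of the specific-granule class was 2.32, 1.51 and 2.58 in controls and 2.19, 1.66 and 4.80 in Emp1-deficient libraries. The gap between the classes was therefore 3.99 ± 0.44 in controls, against 2.62 ± 1.65 under Emp1 deficiency (SD, n = 3 each), with 3.87, 4.48 and 3.62 in the former and 2.54, 4.31 and 1.01 in the latter. Emp1-deficient replicate 2 lay within the control range, replicate 1 had a narrower gap with a low primary-granule level, and replicate 3 had a narrower gap with a high specific-granule level. The median log2 difference was -0.83 for the primary-granule genes (1 of 4 positive) and 0.91 for the specific-granule genes (3 of 3 positive), beside -0.046 for all tested genes. No test was made of the classes, whose members were chosen with results of these data known.

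**Figure D4:**
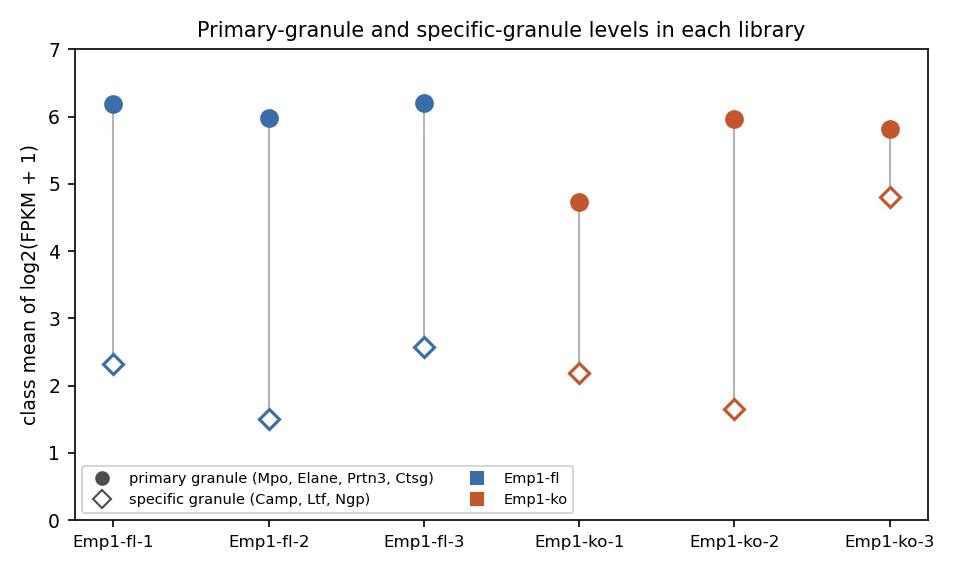
Mean log2(FPKM + 1) of the primary-granule genes (filled circles) and of the specific-granule genes (open diamonds) in each library, joined by a line. The gap is 3.62 to 4.48 in the 3 Emp1-fl libraries and 2.54, 4.31 and 1.01 in Emp1-ko replicates 1, 2 and 3.

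Of the other genes of the granule pathway, 0 passed over all genes in any list by limma, where 0.267% of all tested genes did. With so small a share, 0 calls in lists this short say little. The counts at an unadjusted p under 0.05 that follow stand beside 6.5% higher and 9.72% lower over all tested genes. Among 6 tested genes of other primary-granule proteins, 4 had positive differences (median 0.13; 1 above and 0 below at unadjusted p under 0.05). Lyz2, which encodes lysozyme, stood at 278 ± 18.1 and 264 ± 14.5 FPKM, and Cd63, a tetraspanin of granule membranes, at 276 ± 27.1 and 387 ± 29.7 FPKM with no overlap (SD, n = 3 each; limma adjusted p = 0.105). Among 11 tested genes of specific and gelatinase granules, 5 differences were positive and 6 negative (median -0.058; 4 above, beside 6.5% of all tested genes, and 0 below at unadjusted p under 0.05). Pglyrp1, a peptidoglycan recognition protein, stood at 10.8 ± 1.995 and 15.6 ± 1.56 FPKM, with no overlap between genotypes, as in the higher direction for 8.91% of all tested genes, and a limma adjusted p of 0.177.

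Among the 6 tested inhibitors of neutrophil serine proteases, 3 differences were positive and 3 negative (median 0.098; 2 above and 0 below at unadjusted p under 0.05). Slpi, a secreted inhibitor of elastase and cathepsin G, stood at 1.36, 19.34 and 6.99 FPKM in controls, against 87.43, 21.11 and 97.77 FPKM with Emp1 deficiency. Its genotypes did not overlap, as in the higher direction for 8.91% of all tested genes, though the closest values were 19.34 and 21.11 FPKM. The log2 difference of 2.99 (SE 1.10) did not pass (limma adjusted p = 0.307). Slpi is also in the list of specific and gelatinase granules, so it is among the genes above in both counts. Serpinb1a, an intracellular inhibitor of the same proteases, stood at 107 ± 4.35 and 123 ± 5.92 FPKM (SD, n = 3 each; limma adjusted p = 0.327).

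Genes that fold, process and package granule proteins ranged widely in level in HSCs. The lowest was Lyst, named after its values were seen, at 3.02 to 6.07 FPKM. Of the 17 genes, 7 had positive differences (median -0.067; 0 above and 4 below at unadjusted p under 0.05). Over all tested genes 9.72% were below at that p and 56.9% had negative differences. Srgn, which encodes the granule proteoglycan serglycin, averaged 1059 and 1154 FPKM, and Calr, which encodes calreticulin, a folding chaperone of myeloperoxidase, 237 and 208 FPKM. Unc13d, which encodes the exocytosis factor Munc13-4, had the smallest p of the list, with 85.7 ± 7.34 and 59.6 ± 3.49 FPKM (SD, n = 3 each; log2 difference -0.51, SE 0.10, limma adjusted p = 0.0759). All 3 Emp1-deficient values lay below the controls, as in 13.2% of all tested genes. Of 6 NADPH oxidase genes 5 had negative differences (median -0.21; 0 above and 2 below at unadjusted p under 0.05).

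The transcription factors of granulocyte differentiation were unequally expressed. Spi1, which encodes PU.1, stood at 98.9 ± 5.32 and 114 ± 5.77 FPKM and Runx1 at 103 ± 5.71 and 82.6 ± 10.2 FPKM (SD, n = 3 each; limma adjusted p = 0.338 and 0.217). The genotypes overlapped for neither gene, as in the higher direction for 8.91% and in the lower for 13.2% of all tested genes. Irf8, which favours monocytes over granulocytes, stood at 14.4 ± 3.57 and 6.25 ± 0.792 FPKM (limma adjusted p = 0.0661). In contrast Cebpa, Cebpe and Gfi1, named after their values were seen, were under the filter, with 0.48 to 1.01, 0.18 to 2.31 and 0.37 to 1.15 FPKM. Cebpe, which drives specific-granule genes, was highest in replicate 3 of both genotypes, at 2.31 and 1.85 FPKM. Gfi1, a repressor needed for neutrophil formation, stood at 0.82, 1.15 and 0.98 FPKM in controls, against 0.37, 0.41 and 0.44 FPKM with Emp1 deficiency, too low for the test. Of the 9 tested factors 6 had positive differences (median 0.11; 0 above and 2 below at unadjusted p under 0.05).

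Markers of HSCs and of other blood cells that a sort could hold gave 0 calls by limma in any list, beside 0.267% of all tested genes. Lists this short would hold few calls at that share. Over all tested genes 16.2% had an unadjusted p under 0.05, 6.5% higher and 9.72% lower. By the same measure there were 1 higher and 2 lower among 13 HSC markers, 2 higher and 1 lower among 12 markers of multipotent and granulocyte-monocyte progenitors, and 1 higher and 3 lower among 9 tested monocyte and macrophage markers. There were 1 higher and 0 lower among 7 basophil, mast cell and eosinophil markers, 1 higher and 1 lower among 3 T and NK cell markers, and 0 either way among 9 erythroid, 5 B and plasma cell and 6 megakaryocyte markers. The 2 higher progenitor markers were Cd63, also counted among other primary-granule genes, and Nkg7, also counted among T and NK cell markers. The 5 calgranulin and cytosolic genes and the 9 mature neutrophil surface genes tested each gave 1 higher and 0 lower. B and plasma cell markers had a wide range, with sums of 147 to 621 FPKM in controls, against 355 to 1458 FPKM with Emp1 deficiency, highest in Emp1-deficient replicates 1 and 3, and their part in the results was not tested.

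The genes whose levels followed the class means most closely over the 6 libraries were picked by Pearson's r among 9244 coding genes, as a description of these libraries. For the primary-granule class they were Rec8 (r = 0.993), Pnisr (0.990), Col16a1 (0.989), Fkbp9 (0.987) and Zfp101 (0.987), all lowest in Emp1-deficient replicate 1. For the specific-granule class they were Mapkap1 (0.985), Pink1 (0.979), Ppp1r35 (0.968), Rab5if (0.961) and Rbpms (0.961), all highest in Emp1-deficient replicate 3. With 6 points, 51 genes reached r = 0.95 for the primary-granule and 8 for the specific-granule class, and each class mean lay farthest from the others in 1 library.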

How the data were processed

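Gene expression in 6 libraries was analysed from the FPKM values that the authors deposited, given with 2 decimals for 55401 Ensembl gene identifiers. The tools named, per the submitters' processing notes, are DESeq2, HTSeq, Cufflinks 2.1.1 and Bowtie 0.12.9, with build mm10, but the sources used here do not say which tool made the FPKM values. Per the labels' protocols, RNA was amplified by Geo-seq, a low-input method, which can add scatter to rare transcripts. Absolute depth is unknown, so no counting intervals are given. Relative depth was the most frequent ratio of FPKM in single-exon genes of 600 to 1500 bp under 0.5 FPKM, taking such genes to hold equal fragment numbers.

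GENCODE release M21 (GRCm38, the assembly of mm10) gave symbols, positions and exons and matched 55141 identifiers. All 10 genes matched a RefSeq upstream sequence, and the search was kept to at most 250 bases before the gene, shorter than planned. Genes with at least 1 FPKM in 3 of 6 libraries were fitted on log2(FPKM + 1), a scale that understates changes of low genes, with limma 3.58.1 in R 4.3.3 (trend and robust, genotype as the only term, two-sided), and adjusted p under 0.05 was the threshold. The steps were tested on simulated data. The alternatives were 2 other pseudocounts, 2 other filters, TPM, quantile normalization, array weights, a replicate block, wider classes and each library left out.

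The genes and lists were chosen with earlier results of these data known. Genes named were the 10, the 3 highest and 2 with the smallest p of each of 16 lists, of which part are printed, and the 5 most alike each class. Other genes are said to be named after their values were seen, except those that neighbour or overlap a member. Lists of HSC, progenitor, monocyte, basophil and mast cell, erythroid, B cell, T cell and megakaryocyte markers had 0 calls by limma, beside 0.267% over all genes.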

Additional observations from a re-analysis of the deposited data

How the results depend on the processing

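No granule gene passed the threshold under any alternative, and Mpo, Elane, Prtn3, Ctsg, Ms4a3 and Ltf kept the sign of their difference in all of them. Whole-table counts moved more, and the cause was not tested. The 25 higher genes became 14 with a pseudocount of 0.1, with TPM or with quantile normalization, 6 with a pseudocount of 5, 2 with no filter and 49 with a filter of 5 FPKM, and 1 to 12 with each library left out. The 17 lower genes became 9 with a pseudocount of 5 or quantile normalization, 3 with no filter, 64 with a filter of 5 FPKM, 45 with array weights, and 0 to 16 with each library left out.

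Differences changed sign for Fcnb with array weights (0.029) and, with libraries left out, ranged from -0.43 to 0.35 for Fcnb, -0.26 to 1.81 for Camp, -0.75 to 0.92 for Ngp and -0.59 to 0.73 for S100a8. The primary-granule median ranged from -1.11 to -0.27, the latter without Emp1-deficient replicate 1, and the specific-granule median from -0.26 to 1.36, the former without Emp1-deficient replicate 3. The class gap in controls was 3.11 with a pseudocount of 5 and 2.84 with wider classes, which add Ms4a3 to the primary and Fcnb and S100a8 to the later genes. The adjusted p of Ctsg ran from 0.0963 to 0.514.

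With the replicate number as a block there were 6 higher and 2 lower genes and no granule gene passed. The block narrowed S100a8 to 0.064 (SE 0.091, limma adjusted p = 0.795) and gave Ctsg an adjusted p of 0.208. The numbers were not taken as pairs, because the labels do not say that they pair libraries. Over the whole table, deviations of same-numbered libraries correlated at -0.108, 0.086 and -0.052 for replicates 1, 2 and 3. Such whole-table values do not describe single genes such as S100a8. Low genes such as Fcnb are limited by an unknown depth.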
